A study of Rattus norvegicus with 16 samples.

Results

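CA3 slices at 12 h were set against CA3 slices at T0, with 2 arrays at each time, so that 4 of the 16 arrays of the series carry the comparison. The arrays were chosen by the region and time in their titles. RNA came from the CA3 field of rat organotypic hippocampal slice cultures, which are brain slices kept alive in a dish that retain neurons and glia in place. The tested CA3 slices were taken at 12 h and the CA3 slices of comparison at T0; CA3 slices at 3 h and 30 min, and CA1 slices at 12 h and T0, also with 2 arrays each, were used where named. The series is about the response of both fields to oxidative stress over time. No source used here names the agent, its dose, the age of the animals or whether T0 precedes the agent, and all groups share the culture. No sham-treated slices kept for 12 h are among the samples used here, so time in culture and the stress cannot be told apart. Replicates are called biological in the labels, without word on separate animals, so p-values measure the spread between these arrays.

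CA3 pyramidal neurons are the excitatory cells that pass signals from the dentate gyrus to CA1, and they are known to survive oxidative stress better than CA1 pyramidal neurons. Cells under stress can shut down most protein synthesis through the integrated stress response, in which the transcription factor ATF4 switches on genes for amino acid supply and for the control of cell death. Neurons also answer strong calcium entry with immediate early genes, while microglia, astrocytes and dividing glial precursors in the same slice have responses of their own.

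The values are log2 expression values on which a difference of 1 is a 2-fold difference, and the errors after ± are moderated standard errors of limma unless stated otherwise. A gene is said to have risen or fallen only where the Benjamini-Hochberg adjusted p over all 15866 probe sets was under 0.05. Beside this test, a gene is called separated where both 12 h arrays lay on the same side of both T0 arrays and the means differed by at least 1. Separation is a description without a p-value. The 2 arrays of each time correlated across probe sets at 0.967 for 12 h and 0.954 for T0, within the range of 0.911 to 0.969 over the 8 groups.

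Some arrays stood apart in their controls and cell type markers. The control transcripts added before labelling had mean log2 signals of 5.13 and 4.32 on the 12 h arrays, against 6.25 and 6.20 at T0. The GAPDH 3' minus 5' difference, a measure of RNA shortening, was 1.29 and 2.92 at 12 h, against 1.93 and 2.62 at T0. Relative to T0 replicate 1, the T0 replicate 2 array read low in neuronal genes and high in fibroblast genes. On T0 replicate 2 the 15 general neuronal markers had a mean log2 value of 6.95, against 8.09 on T0 replicate 1. The summed linear signal of the 14 fibroblast, meningeal and choroid plexus markers was 6840, against 2423. The neuronal mean was also low on 30 min replicate 1, at 6.37, and on 3 h replicate 1, at 6.86. Which T0 array is the unusual one in neuronal genes was not tested. The 12 h replicate 2 array read low in microglia markers, as given below. Their part in the results was not tested beyond the values without these arrays.

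The tissue label was set against markers of hippocampal fields. The kainate receptor subunit Grik4, a marker of CA3 pyramidal neurons, had log2 values of 7.52 and 6.83 in CA3 at 12 h, and 5.75 and 5.93 in CA1 at 12 h. Mpped1 and Pou3f1, which mark CA1, had 5.61 and 7.39, and 3.58 and 3.79, in CA3 at 12 h. In CA1 at 12 h Mpped1 had 10.23 and 9.21 and Pou3f1 5.38 and 6.21. Grik4, Mpped1 and Pou3f1 thus lay in the direction of their field at 12 h. Some other listed markers did not. The CA3 marker Prkcd had 6.95 and 6.53 in CA3 and 6.83 and 6.94 in CA1 at 12 h. The CA1 marker Man1a1 had 6.70 and 5.88 in CA3 and 6.58 and 5.98 in CA1. From T0 to 12 h in CA3, the 10 measured CA3 pyramidal markers had a median of 0.37, with 8 above 0 and 2 below. At T0 Grik4, Mpped1 and Pou3f1 did not lie in the direction of their field. Grik4 overlapped, with 6.29 and 5.27 in CA3 and 5.50 and 5.33 in CA1. Mpped1 ran against the field label at T0, with 5.34 and 5.60 in CA3 and 4.35 and 4.50 in CA1.

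At 12 h a single gene had risen in CA3 and none had fallen. The gene was Chac1, whose enzyme breaks down glutathione, the main small antioxidant of the cell, and which is a known target of ATF4. Chac1 had log2 values of 10.75 and 10.68 at 12 h, against 7.25 and 7.37 at T0. The arrays of the 2 times lay far apart and replicates close together. Its rise was 3.41 ± 0.28 on the log2 scale, or 10.6-fold (limma, adjusted p = 0.00213). Fitted on the 4 arrays alone, with fewer degrees of freedom, it did not pass (adjusted p = 0.318). In all, 1 of 15866 probe sets passed, which is 0.0063% (0.00961% of the 10411 genes), and 1099 had an unadjusted p under 0.05, where 793 would be expected by chance. The next genes by p, Gadd45b, Glce and Pimreg, stood at adjusted p = 0.0806. For CA3 at 12 h against T0, everything below apart from Chac1 is therefore a description of values that did not pass. Separation by 1 or more was seen for 1002 probe sets, or 6.32%. By gene it was seen for 403 of 10411 genes in the higher direction, which is 3.87%, and for 353 in the lower direction, which is 3.39%. Without 12 h replicate 1 these counts were 706 and 619, and without T0 replicate 1 they were 682 and 629. Without 12 h replicate 2 they were 349 and 264, and without T0 replicate 2 they were 321 and 359. The median over all genes was -0.03, and gene lists below are read against these shares and this median.

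Promoters of Chac1, Trib3 and Gadd45g are shown because these genes lay higher at 12 h and their windows hold the letters of the response element that ATF4 binds together with C/EBP proteins in human and mouse cells. The 3 windows were picked after their values were seen. Sequences are from RefSeq on the rat build GRCr8, run from 250 bases before to 50 after the start, 5' to 3' on the gene's strand, and the capitals mark the element, TGATGNAA or its reverse complement TTNCATCA.
Chac1: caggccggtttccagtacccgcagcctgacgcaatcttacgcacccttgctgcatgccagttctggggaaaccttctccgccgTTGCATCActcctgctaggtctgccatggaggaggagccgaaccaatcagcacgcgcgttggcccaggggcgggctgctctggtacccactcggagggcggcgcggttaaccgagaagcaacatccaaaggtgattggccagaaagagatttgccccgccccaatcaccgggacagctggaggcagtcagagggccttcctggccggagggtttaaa
Trib3: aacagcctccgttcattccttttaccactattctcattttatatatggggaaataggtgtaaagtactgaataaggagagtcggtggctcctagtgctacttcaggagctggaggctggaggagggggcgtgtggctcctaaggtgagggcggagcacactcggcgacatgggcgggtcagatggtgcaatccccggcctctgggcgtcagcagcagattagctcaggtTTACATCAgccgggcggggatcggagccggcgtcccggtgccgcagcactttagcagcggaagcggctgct
Gadd45g: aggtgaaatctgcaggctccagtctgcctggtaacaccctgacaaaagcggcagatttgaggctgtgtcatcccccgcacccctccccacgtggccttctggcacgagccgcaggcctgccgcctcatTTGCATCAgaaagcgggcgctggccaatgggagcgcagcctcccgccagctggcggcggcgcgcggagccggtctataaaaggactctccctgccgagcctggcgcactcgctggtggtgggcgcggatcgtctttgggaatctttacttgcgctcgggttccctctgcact
The windows lie at chr3:126795881-126796180 on the plus strand for Chac1, chr3:161275484-161275783 on the minus strand for Trib3, and chr17:13530302-13530601 on the minus strand for Gadd45g. Chac1 and Gadd45g hold the same 8 letters, TTGCATCA, and Trib3 holds TTACATCA. Searched on both strands, the element was found in 4 of the 32 promoters matched for the integrated stress and unfolded protein response list, or 12.5%, and in 2.17% of the 8630 promoters of measured genes and 3.82% of all 27457 promoters. The other 2 promoters of the list with a match were those of Herpud1 and Nupr1. The promoters of Atf4, Ddit3, Asns and Ddit4, list members that also lay higher at 12 h, held no match. That of Gadd45b, which lay higher much as Gadd45g did, held none either. A match describes letters in a window and is not evidence of binding.

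Of the 37 measured genes of the integrated stress and unfolded protein response, 1 rose and 36 did not pass. Separation was seen for 8 in the higher and 4 in the lower direction, or 21.6% and 10.8%, and the median was 0.20. Without 12 h replicate 2 these counts were 5 and 2. The 8 were Chac1, Trib3, Atf4, Atf3, Ddit3, Asns, Ddit4 and Herpud1, and the 4 were Dnajc3, Creld2, Sdf2l1 and Edem1. Of the 37, 23 lay above 0 and 14 below.

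Trib3, a pseudokinase induced by ATF4 and CHOP, had log2 values of 7.56 and 7.60 at 12 h, against 6.21 and 6.21 at T0, a difference of 1.37 ± 0.32. A further probe set for it gave 1.23 (adjusted p = 0.082). Atf4 itself had 10.36 and 10.82 at 12 h, against 9.32 and 9.49 at T0. Every 12 h array of both genes lay above every T0 array. Atf3, a stress-induced partner of the same family, had 9.12 and 9.13 at 12 h, against 6.11 and 7.63 at T0, and Ddit3, which encodes CHOP, had 8.32 and 8.39, against 6.84 and 7.26. Asns, the asparagine synthetase, had 9.30 and 8.70 at 12 h, against 7.68 and 7.79 at T0. Differences for Atf4, Atf3, Ddit3 and Asns were 1.18 ± 0.29, 2.25 ± 0.69, 1.30 ± 0.52 and 1.26 ± 0.47. Slc7a5 and Slc3a2, the chains of a large amino acid transporter, differed by 0.84 ± 0.21 and 0.93 ± 0.42, and Mthfd2, a mitochondrial folate enzyme, by 0.80 ± 0.36. The serine and glycine synthesis genes Phgdh, Psat1 and Shmt2 differed by -0.65 ± 0.47, 0.44 ± 0.47 and 0.34 ± 0.17.

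Among the 4 on the lower side, Dnajc3, a co-chaperone of the endoplasmic reticulum, had 6.37 and 5.93 at 12 h, against 7.16 and 7.74 at T0. Creld2 and Sdf2l1, genes of the unfolded protein response, were lower by 1.26 ± 0.44 and 1.22 ± 0.45, and Edem1, which sends misfolded glycoproteins to degradation, by 1.28 ± 0.70. The master chaperone gene of that compartment, Hspa5, had 9.97 and 9.97 at 12 h, against 9.49 and 10.19 at T0. Its 12 h arrays lay between the T0 arrays.

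Growth arrest genes of the Gadd45 family were among those with the most distant arrays. Their proteins bind cell cycle kinases and stress kinases and are induced by DNA damage and other stress. Gadd45b had log2 values of 9.60 and 8.95 at 12 h, against 5.62 and 6.60 at T0, and Gadd45g had 9.49 and 9.50, against 5.29 and 6.46. The differences were 3.17 ± 0.41 (adjusted p = 0.0806) and 3.61 ± 0.55 (adjusted p = 0.082), neither past the threshold. Gadd45a had 6.65 and 6.74 at 12 h, against 4.91 and 5.54 at T0. The p53 target Cdkn1a, the kinase inhibitor p21, had 9.43 and 9.66 at 12 h, against 9.28 and 10.48 at T0, so its arrays overlapped. Over the 11 measured genes of this list the median was -0.01, and 3 were separated in the higher and 1 in the lower direction. The gene on the lower side was Pycard, an inflammasome adaptor also expressed in myeloid cells, with 6.96 and 4.79 at 12 h, against 7.79 and 7.07 at T0.

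Immediate early and activity genes had their separated members on the higher side. Of the 33 measured immediate early and activity genes, 12 were separated in the higher direction (36.4%, against 3.87% of all genes) and 0 in the lower, and the median was 0.56. Plk2, a kinase that weakens overactive synapses, had log2 values of 9.31 and 10.62 at 12 h, against 5.60 and 5.98 at T0, a difference of 4.18 ± 1.41. Fosb, a subunit of AP-1 that persists after activity, had 7.56 and 8.92 at 12 h, against 5.20 and 5.05 at T0. Inhba, which encodes the activin A subunit, a secreted factor known to protect hippocampal neurons, had 7.98 and 7.61 at 12 h, against 5.94 and 5.73 at T0 (1.96 ± 0.31, adjusted p = 0.082). In these 3 genes the T0 arrays were close together and well below the 12 h arrays.

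Homer1, a scaffold of the synapse, had 9.98 and 10.52 at 12 h, against 7.91 and 5.74 at T0, and the neurotrophin gene Bdnf had 6.86 and 8.55, against 4.83 and 4.29. Egr2 had 8.78 and 10.26 at 12 h, against 5.59 and 8.08 at T0. Replicates of these genes lay far apart, and the standard errors were 1.55 for Homer1, 1.32 for Bdnf and 1.11 for Egr2. For Bdnf the effect rests on the brighter of its 2 probe sets, since the other, with a mean log2 value of 4.32, read 0.08. Jun, the AP-1 subunit, had 11.18 and 10.98 at 12 h, against 9.69 and 9.94 at T0, a difference of 1.27 ± 0.29, and its other single-gene probe sets read 1.80 and 1.74.

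By contrast Fos had 9.17 and 10.26 at 12 h, against 7.83 and 9.84 at T0, and Egr1 had 8.14 and 9.17, against 6.85 and 10.02. For Fos and Egr1 the arrays of the 2 times overlapped, and Arc, an activity gene of dendrites, was 0.90 ± 0.74 higher. Without T0 replicate 1 the list had 11 genes separated in the higher and 6 in the lower direction, and its median was 0.21.

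**Figure D1:**
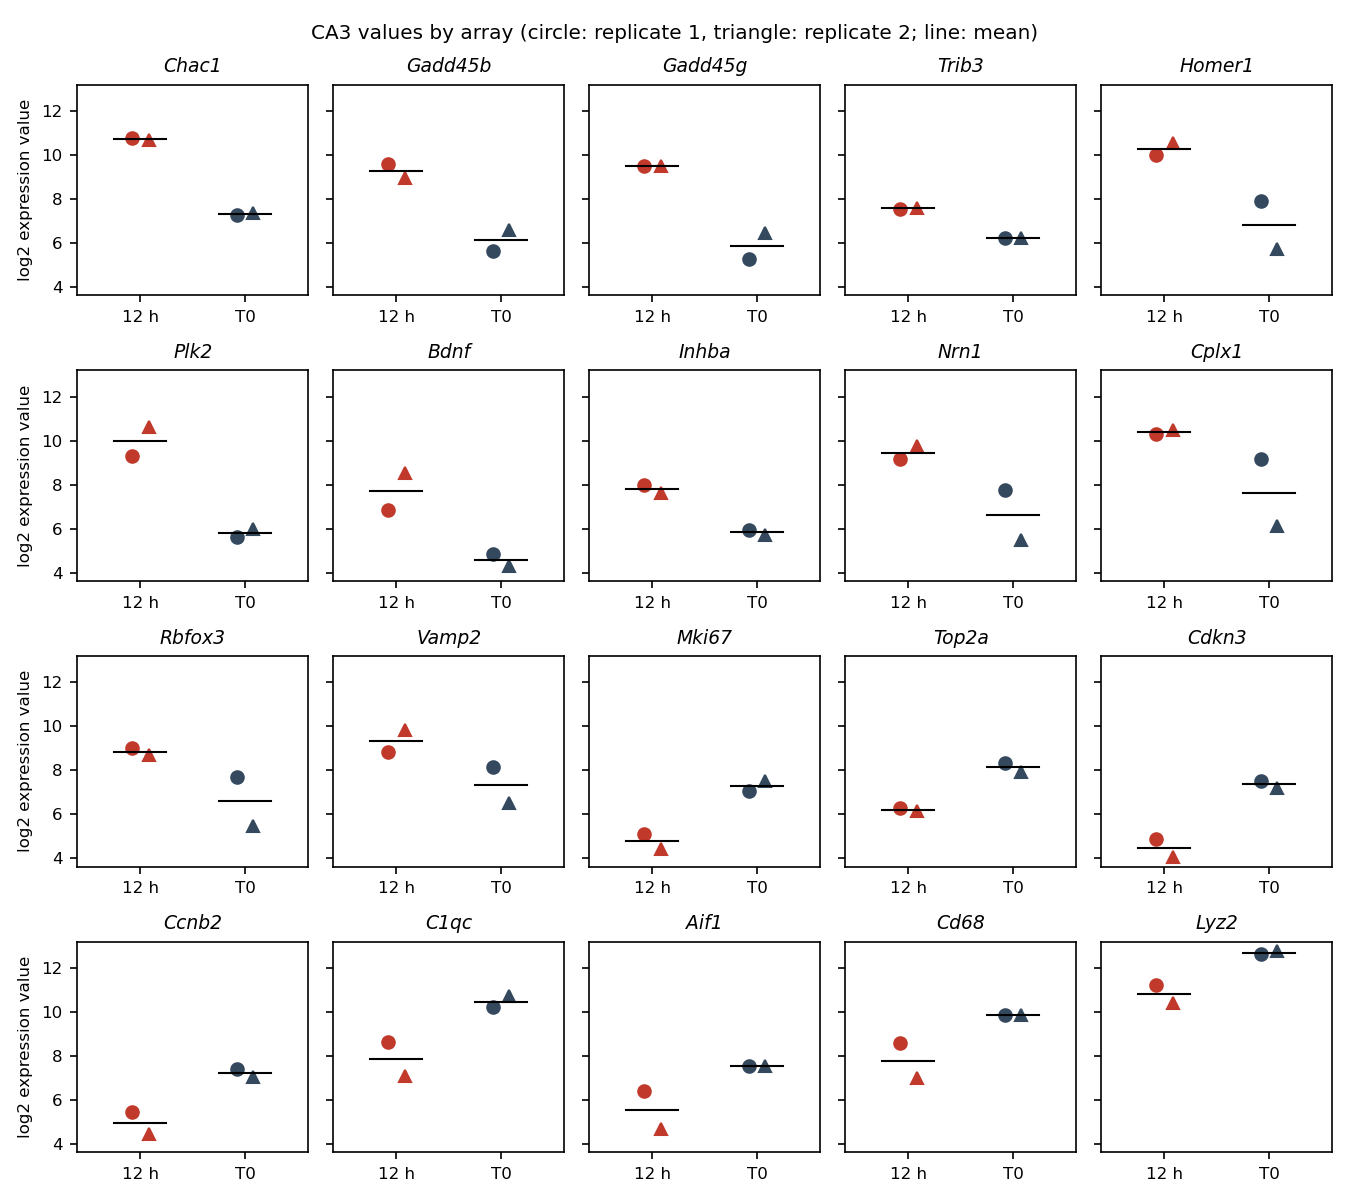
Log2 expression values of 20 genes on each CA3 array, with the 12 h arrays in red on the left and the T0 arrays in dark blue on the right of each panel; circles are replicate 1, triangles replicate 2 and lines the mean of 2 arrays. Chac1 has replicates close together at both times, Homer1, Cplx1, Rbfox3 and Vamp2 have a low T0 replicate 2, and C1qc, Aif1 and Cd68 have a 12 h replicate 2 below replicate 1.

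Neuronal genes made up the broadest group on the higher side, though their distance from T0 depended on the T0 array. Of 33 genes for neurite growth and synaptic vesicles, 21 were separated in the higher direction (63.6%, against 3.87% of all genes), 0 in the lower, and the median was 1.47. Of 15 general neuronal markers 11 were separated in the higher direction, with a median of 1.54, and of 10 excitatory neuron markers 6, with a median of 1.24. None of these genes passed the test. In a slice, more neurons and more of these transcripts per neuron cannot be told apart, and the same holds for every cell type below.

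Cplx1, a clamp of vesicle fusion, had log2 values of 10.28 and 10.49 at 12 h, against 9.17 and 6.11 at T0. Vamp2, the vesicle SNARE, had 8.83 and 9.83 at 12 h, against 8.13 and 6.52 at T0, and Nrn1, a neurite growth factor, had 9.16 and 9.75, against 7.74 and 5.47. In each the 12 h arrays were the highest, and T0 replicate 2 was the lowest by a wide margin. Rbfox3, which encodes the neuronal antigen NeuN, had 9.02 and 8.68 at 12 h, against 7.72 and 5.45 at T0. Snap25, another SNARE, had 10.97 and 10.26 at 12 h, against 10.57 and 7.04 at T0, so its arrays overlapped. Tubb3, the neuronal tubulin, had 6.98 and 7.16 at 12 h, against 5.33 and 5.62 at T0, and Slc17a6, a vesicular glutamate transporter, had 7.57 and 8.04, against 6.08 and 5.61. Tubb3 and Slc17a6 had T0 arrays close together, and their differences were 1.59 ± 0.41 and 1.96 ± 0.58. A further, dimmer probe set for Tubb3, with a mean log2 value of 4.1, read -0.02.

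Leaving out T0 replicate 2 lowered the medians to 0.78 for growth and vesicle genes, 0.75 for general neuronal markers and 0.48 for excitatory markers, and left 14, 6 and 3 genes separated in the higher direction, with 1 excitatory marker separated in the lower. With the signal of the added control transcripts as a covariate the medians were 0.59, 0.63 and 0.47. The summed linear signal of the excitatory markers was 3197 and 4030 at 12 h, against 2358 and 1107 at T0.

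Lists of neuronal signalling genes were mixed. Of 13 RGS regulators 2 were separated in the higher and 2 in the lower direction, 9 lay below 0, and the median was -0.06. Rgs4, which shortens G protein signals, had 8.95 and 9.88 at 12 h, against 6.34 and 5.29 at T0, and Rgs7 lay higher by 1.89 ± 1.06. Rgs4 has a further probe set, which gave 2.17, while the one used gave 3.60. On the lower side were Rgs1, a regulator of immune cells, at -2.14 ± 1.00 and Rgs10, which microglia express, at -1.17 ± 0.69. Of 31 potassium channel genes 6 were separated in the higher direction (19.4%; 2 without 12 h replicate 2) and the median was 0.05. The 6 included Kcnip2, a subunit of the A-type current, with 8.02 and 7.35 at 12 h, against 6.52 and 4.93 at T0. Of 11 GABA receptor and chloride transporter genes 3 were separated in the higher direction, the receptor subunits Gabrb1, Gabra5 and Gabbr2, at 2.12 ± 0.91, 1.67 ± 0.87 and 1.85 ± 1.07. The count was 1 without T0 replicate 2, and 5 without T0 replicate 1 or 12 h replicate 1. Cacnb2, a calcium channel subunit, had 8.93 and 8.98 at 12 h, against 7.46 and 6.50 at T0. Among 13 AMPA and kainate receptor genes 3 were separated in the higher direction, and among 13 NMDA and metabotropic receptor genes 1, Grin1, the obligatory NMDA subunit, at 1.26 ± 0.73 (no NMDA or metabotropic gene without T0 replicate 2). Medians of these receptor lists were 0.12 and 0.07. Dimmer probe sets read 0.03 for Gabbr2, 0.14 and 0.07 for Kcnip2, -0.15 for Grin1, and 1.25 and -0.07 for Cacnb2.

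Of 23 neuropeptide and secretogranin genes 8 were separated in the higher (5 without 12 h replicate 2) and 1 in the lower direction, with a median of 0.24. Chgb, the secretory granule protein and a CA3 marker, had 9.74 and 10.17 at 12 h, against 8.16 and 6.49 at T0, and Cck was higher by 1.56. Outside this list, Calb1, a calcium buffer of dentate granule cells and interneurons, lay lower, with 7.50 and 6.35 at 12 h, against 9.80 and 7.52 at T0. Reln, made by Cajal-Retzius cells and interneurons, had 7.53 and 8.27 at 12 h, against 8.46 and 10.53 at T0. In Calb1 and Reln the arrays of the 2 times did not overlap, but the T0 replicates lay far apart. For Calb1 the higher 12 h array and the lower T0 array were nearly level, and the difference was -1.73 ± 1.69. A dimmer Reln probe set read -0.26, against -1.6 for the one used.

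Genes of dividing cells lay lower as a body. All 26 measured mitosis genes had both 12 h arrays below both T0 arrays, where 24.3% of all genes did, and 21 of them were separated by 1 or more (80.8%, against 3.39% of all genes). The median was -1.47, and with each of the 4 arrays left out in turn it ran from -1.62 to -1.34, with 18 to 23 genes separated. Of 25 DNA replication genes 12 were separated in the lower direction (48.0%), with a median of -0.97, and 7 without 12 h replicate 2. None of the members passed the test. The slice holds neural progenitors, glial precursors and microglia, any of which can divide in culture.

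Mki67, the standard marker of proliferation, had log2 values of 5.13 and 4.45 at 12 h, against 7.06 and 7.53 at T0, a difference of -2.51 ± 0.36 (adjusted p = 0.082). Pimreg, a mitotic regulator, had 4.63 and 3.90 at 12 h, against 6.78 and 6.16 at T0 (-2.21 ± 0.30, adjusted p = 0.0806). Top2a, the topoisomerase that untangles chromosomes, had 6.27 and 6.14 at 12 h, against 8.34 and 7.92 at T0 (-1.92 ± 0.31, adjusted p = 0.093), and its other, dimmer probe set read -0.43. In each of the 3 the distance between times exceeded that between replicates. Cdkn3, a phosphatase that acts on cyclin-dependent kinases, had 4.90 and 4.06 at 12 h, against 7.53 and 7.21 at T0. Ccnb2, a mitotic cyclin, had 5.45 and 4.44 at 12 h, against 7.42 and 7.05 at T0, and Cdk1, its kinase, had 6.56 and 5.43, against 8.12 and 7.78. The kinesin genes Kif15, Kifc1 and Kif20a were lower by 2.20 ± 0.37, 1.49 ± 0.23 and 1.46 ± 0.26. At the small end, Birc5, the survivin gene, had 4.54 and 4.34 at 12 h, against 5.18 and 5.20 at T0. Means under 5 are dim on these arrays, and 2691 of the 10411 genes had such a mean.

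Promoters of Ccnb2, Cdk1 and Top2a are shown because mitosis genes lay lower together and their windows hold the 2 elements known from human and mouse cell cycle promoters. One is the cell cycle genes homology region, searched as TTTGAA. The other is the box bound by NF-Y, searched as CCAAT. Capitals mark matches of both on either strand, again in RefSeq sequence on GRCr8, 5' to 3' on the gene's strand.
Ccnb2: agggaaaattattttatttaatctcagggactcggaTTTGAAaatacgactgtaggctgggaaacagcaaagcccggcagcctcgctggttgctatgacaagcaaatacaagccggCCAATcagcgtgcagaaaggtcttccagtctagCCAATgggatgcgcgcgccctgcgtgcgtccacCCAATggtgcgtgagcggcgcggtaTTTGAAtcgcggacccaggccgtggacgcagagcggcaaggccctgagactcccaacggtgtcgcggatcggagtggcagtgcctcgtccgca
Cdk1: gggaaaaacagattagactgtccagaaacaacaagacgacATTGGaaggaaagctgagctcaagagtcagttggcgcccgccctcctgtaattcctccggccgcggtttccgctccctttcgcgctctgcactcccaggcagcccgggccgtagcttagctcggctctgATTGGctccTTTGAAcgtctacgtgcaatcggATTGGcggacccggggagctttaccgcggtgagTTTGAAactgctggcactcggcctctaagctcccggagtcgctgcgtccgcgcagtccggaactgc
Top2a: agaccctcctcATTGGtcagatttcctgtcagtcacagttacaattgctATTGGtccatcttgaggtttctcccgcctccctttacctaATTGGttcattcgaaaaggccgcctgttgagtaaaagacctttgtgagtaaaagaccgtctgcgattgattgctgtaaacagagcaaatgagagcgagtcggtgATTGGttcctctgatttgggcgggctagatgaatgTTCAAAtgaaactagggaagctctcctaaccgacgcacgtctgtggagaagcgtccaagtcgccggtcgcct
The windows lie at chr8:79981609-79981908 on the minus strand for Ccnb2, chr20:19265043-19265342 on the plus strand for Cdk1, and chr10:84473044-84473343 on the minus strand for Top2a. Of 22 mitosis promoters matched, 16 held TTTGAA on either strand (72.7%, against 11.7% of promoters of measured genes and 18.1% of all promoters). CCAAT was found in 16 (72.7%, against 37.6% and 37.7%). Both were in 13 (59.1%, against 4.91% of promoters of measured genes). Of 21 DNA replication promoters 1 held TTTGAA and 11 held CCAAT. In other lists, CCAAT was found in 65.6% of integrated stress and unfolded protein response promoters and 63.6% of growth arrest promoters. It was found in 58.3% of microglia marker, 37.5% of neuronal growth and vesicle, and 36% of immediate early promoters. Shares with TTTGAA in the same order were 0%, 18.2%, 33.3%, 16.7% and 12%. The 3 windows shown were chosen after their values were seen, and the letters say nothing of what is bound.

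Replication genes differed by less than mitosis genes at the median. Mcm3, a helicase subunit, had 5.43 and 5.54 at 12 h, against 6.59 and 6.47 at T0, a difference of -1.04 ± 0.21. Rrm1, which makes deoxynucleotides, had 7.07 and 6.49 at 12 h, against 8.25 and 8.62 at T0. Nes, the filament of neural progenitors, had 6.52 and 6.11 at 12 h, against 7.49 and 8.10 at T0 (-1.48 ± 0.23, adjusted p = 0.082). Of the other 8 measured progenitor markers none was separated by 1 or more, and the list median was -0.14.

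Microglia markers were the other large group on the lower side. Of 18 measured, 16 were separated in the lower direction (88.9%), and the median was -1.87. C1qc, a chain of the complement starter C1q, had log2 values of 8.66 and 7.11 at 12 h, against 10.22 and 10.72 at T0. Lyz2, lysozyme of myeloid cells, had 11.22 and 10.40 at 12 h, against 12.63 and 12.76 at T0, a difference of -1.88 ± 0.44. Aif1, the microglial marker Iba1, had 6.42 and 4.68 at 12 h, against 7.55 and 7.53 at T0, and the lysosomal marker Cd68 had 8.60 and 7.0, against 9.88 and 9.85. In C1qc, Aif1 and Cd68 the T0 arrays lay closer together than the 12 h arrays, of which replicate 2 was the lower. The exceptions were Cx3cr1, the fractalkine receptor, and Itgam, the integrin CD11b. These 2 markers had overlapping arrays, with 5.61 and 4.75 at 12 h, against 5.33 and 4.86 at T0, for the first and a difference of -0.08 for the other.

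The summed linear signal of the microglia markers was 6547 and 2772 at 12 h, against 16270 and 16631 at T0. Without 12 h replicate 2 the median was -1.10 and 11 genes were separated, and with the added control transcripts as a covariate the median was -0.99. Of 22 autophagy and lysosome genes 5 were separated in the lower and 2 in the higher direction, with a median of -0.33. Without 12 h replicate 2 the lower count was 1, and without T0 replicate 2 it was 3. Ctsz, a cathepsin that microglia express, had 9.22 and 6.94 at 12 h, against 10.08 and 9.95 at T0, while Gabarapl1, an autophagosome gene, had 9.33 and 9.95 at 12 h, against 7.96 and 7.22 at T0. Gusb, a lysosomal enzyme often used as a housekeeping gene, had 7.52 and 6.82 at 12 h, against 8.88 and 8.53 at T0.

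Inflammatory genes had more members on the lower than on the higher side. Of 33 cytokine, chemokine and prostaglandin genes 9 were separated in the lower direction (27.3%) and 1 in the higher, and the median was -0.38. Ptgs1, the constitutive cyclooxygenase, had 5.06 and 4.25 at 12 h, against 6.16 and 8.04 at T0. Ptgs2, the inducible one, was the gene on the higher side, with 4.27 and 5.21 at 12 h, against 3.59 and 3.41 at T0. The chemokine Cxcl1 had 5.14 and 4.92 at 12 h, against 5.42 and 8.92 at T0, and the adhesion molecule Icam1 had 5.46 and 5.45, against 6.05 and 8.53. Both values rest mostly on T0 replicate 2, and without that array 5 of the 33 were separated in the lower direction. The proinflammatory cytokine genes Tnf and Il1b differed by -0.04 and -0.38.

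Matrix and fibroblast genes were lower, again most of all against T0 replicate 2. Of 14 fibroblast, meningeal and choroid plexus markers 5 were separated in the lower direction, with a median of -0.69 (-0.14 and 3 genes without T0 replicate 2, -1.30 and 8 genes without T0 replicate 1). Of 37 matrix genes 6 were, with a median of -0.52 (-0.14 and 2 genes without T0 replicate 2, 17 genes without T0 replicate 1 and 12 without 12 h replicate 1). Postn, a matrix protein of fibroblasts, had 7.58 and 5.22 at 12 h, against 8.63 and 11.08 at T0. Fn1, fibronectin, had 8.22 and 7.20 at 12 h, against 9.25 and 10.58 at T0, and Lgals1, a galectin of glia and fibroblasts, had 7.06 and 4.75, against 8.85 and 9.26.

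All 5 measured oligodendrocyte precursor markers lay below 0, with a median of -0.65, and 1 was separated, the growth factor receptor Pdgfra, with 9.03 and 8.47 at 12 h, against 9.34 and 10.79 at T0. Without T0 replicate 2 none of the 5 was separated. Of 14 astrocyte markers 1 was separated, the intermediate filament Vim, with 11.32 and 10.29 at 12 h, against 11.97 and 11.92 at T0, and the median was -0.21 (0.04 without 12 h replicate 2). Gfap, the filament that rises in reactive astrocytes, had 12.89 and 12.26 at 12 h, against 12.93 and 12.04 at T0. Of 10 oligodendrocyte markers 1 was separated, Mbp, the myelin basic protein, with 12.20 and 11.76 at 12 h, against 11.34 and 9.87 at T0, and the list median was 0.27. Of 13 endothelial and mural markers 0 were separated and 9 had means under 5, so that a difference in those cells could be missed. The linear signals of the astrocyte list summed to 20264 and 12442 at 12 h, against 22383 and 16276 at T0.

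**Figure D2:**
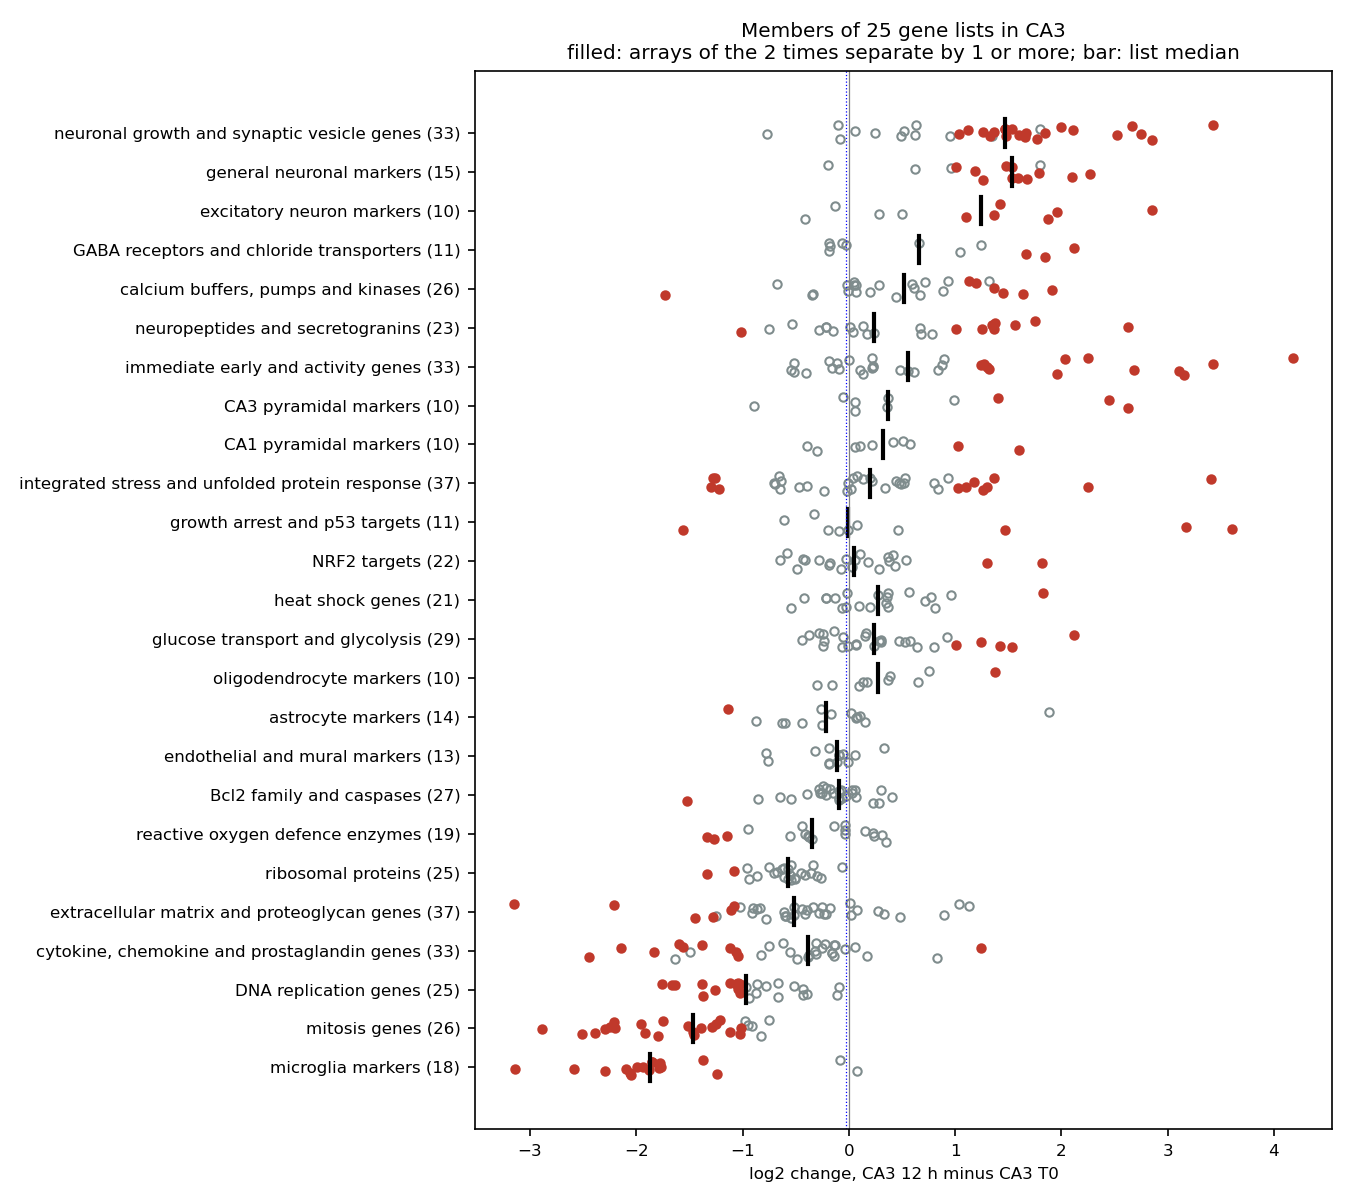
Log2 change in CA3, 12 h minus T0, of each measured member of 25 gene lists, with the number of members after the list name. Filled red points are members whose arrays separate by 1 or more, open points the others, black bars the list medians, and the dotted line the median of all genes at -0.03. Microglia, mitosis and DNA replication genes lie to the left and neuronal lists to the right, while the stress lists hold members on both sides.

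Among defences against reactive oxygen, NRF2 target genes differed little at the median at 12 h. Of 22 genes that NRF2 switches on when it senses oxidants, 2 were separated in the higher direction and 0 in the lower, and the median was 0.05. Srxn1, which repairs peroxiredoxins, had 9.47 and 9.86 at 12 h, against 7.43 and 8.26 at T0, a difference of 1.82 ± 0.45. Sqstm1, the autophagy receptor p62, had 10.24 and 10.82 at 12 h, against 9.49 and 8.97 at T0, but its 3 other probe sets read between -0.13 and 0.13. Hmox1, the inducible heme oxygenase, had 10.20 and 10.57 at 12 h, against 9.85 and 10.19 at T0, and Nqo1, a quinone reductase, had 9.99 and 9.55, against 9.27 and 10.40. Both lay close to T0. In the time series Hmox1 had 12.09 and 11.21 at 3 h.

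Of 19 enzymes that remove reactive oxygen, 3 were separated in the lower direction (15.8%, against 3.39% of all genes) and 0 in the higher. Of the 19, 14 lay below 0 and 5 above, and the median was -0.35 (0.01 without 12 h replicate 2). The count was 1 without T0 replicate 1 or 12 h replicate 2, and 5 without T0 replicate 2. Gpx1, a glutathione peroxidase, had 11.22 and 9.50 at 12 h, against 11.96 and 11.31 at T0, and Glrx, a glutaredoxin, had 8.70 and 8.16, against 9.68 and 9.84. A dimmer Glrx probe set read -0.11. The gene of this list completing the count of 3 was Prdx4, a peroxiredoxin of the endoplasmic reticulum, at -1.15.

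Shares of separated heat shock and cell death genes were near those of all genes, and their counts moved with single arrays. They were 4.8% of heat shock genes in the higher direction, against 3.87%, and 3.7% of cell death genes in the lower, against 3.39%. Over all genes these shares were 6.78% and 5.95% without 12 h replicate 1, and 6.55% and 6.04% without T0 replicate 1. Of 21 heat shock genes 1 was separated (4 without 12 h replicate 1, 3 without T0 replicate 1 and 2 without T0 replicate 2), Hspa1a, with 5.36 and 8.85 at 12 h, against 5.22 and 5.32 at T0. The Hspa1a difference rests on 12 h replicate 2, and its probes cannot be told from the near-identical Hspa1b by symbol. Of 27 Bcl2 family and caspase genes 1 was separated, in the lower direction, Casp1, the inflammatory caspase of myeloid cells, at -1.52. This count was 3 without T0 replicate 1, 2 without T0 replicate 2 or 12 h replicate 1, and 0 without 12 h replicate 2. The median was -0.09 and the range ran from -1.52 to 0.41. The upper end was Hrk, a cell death inducer of neurons.

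Energy and translation genes differed in both directions. Of 29 glucose transport and glycolysis genes 5 were separated in the higher direction (17.2%; 3 without T0 replicate 2) and 0 in the lower, with a median of 0.24. Slc2a1, a glucose transporter of glia and vessels, had 9.0 and 8.45 at 12 h, against 7.09 and 7.51 at T0, and Slc2a3, the neuronal one, had 8.03 and 9.01, against 6.99 and 5.82. A dimmer Slc2a3 probe set read 0.05. Of 49 listed ribosomal protein genes 25 were measured, and all 25 had negative differences. Of these, 18 were without overlap, as were 24.3% of all genes on the lower side. By 1 or more, 2 were separated (8.0%, against 3.39% of all genes). The median was -0.57 (-0.35 without T0 replicate 2 and -0.31 without 12 h replicate 2). The count of 2 was 8 without T0 replicate 1 or 12 h replicate 1, and 0 without either replicate 2 array. The 33 respiratory chain genes had a median of 0.29 and the 25 proteasome genes one of 0.14.

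Beyond these lists, the rule for naming genes brought up others with large t values. Wnt4, a secreted Wnt ligand, had 5.49 and 6.20 at 12 h, against 4.01 and 3.95 at T0 (1.86 ± 0.28, adjusted p = 0.082). Glce, an enzyme of heparan sulfate synthesis, had 6.89 and 7.05 at 12 h, against 5.58 and 5.50 at T0 (1.43 ± 0.19, adjusted p = 0.0806), and Lynx1, a brake on nicotinic receptors, had 6.56 and 6.14, against 5.15 and 4.73 (1.41 ± 0.20, adjusted p = 0.082). For these 3 genes the distance between times exceeded that between replicates. Tet2, which oxidises methylated DNA, was higher by 1.43 ± 0.24, Nfil3, a bZIP repressor, by 1.49 ± 0.29, Fnip2, a folliculin partner, by 1.31 ± 0.24, and Creb1, the cAMP response factor, by 1.25 ± 0.22. For Creb1 the 2 dimmer probe sets read 0.00 and 0.01. Marchf11, a ubiquitin ligase, was higher by 1.82 ± 0.36. On the lower side were S100a11, a calcium-binding protein, at -1.74 ± 0.29, Fam111a, a protease of DNA replication, at -1.98 ± 0.34, Atad2, a chromatin ATPase of dividing cells, at -1.14 ± 0.18, Plk4, the centriole kinase, at -1.01 ± 0.17, and Cdca5l1 at -2.04 ± 0.33.

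The other times in CA3 are given as values. Against T0, 0 of 15866 probe sets passed at 30 min and 0 at 3 h (limma, smallest adjusted p 0.857 and 0.42). At an unadjusted p under 0.05 there were 483 and 623, where 793 would be expected by chance. Chac1 had 7.25 and 7.37 at T0, 7.55 and 8.02 at 30 min, 9.05 and 9.0 at 3 h and 10.75 and 10.68 at 12 h, so each later time lay above the one before. Gadd45b had 5.62 and 6.60 at T0, 7.16 and 6.70 at 30 min, 8.48 and 8.41 at 3 h and 9.60 and 8.95 at 12 h. Inhba had 5.94 and 5.73 at T0, 6.26 and 6.01 at 30 min, 6.30 and 5.87 at 3 h and 7.98 and 7.61 at 12 h. The highest Inhba values were those at 12 h. Glce also had its highest values at 12 h, with 5.04 and 5.42 at 30 min and 5.59 and 5.45 at 3 h. Mki67 had 7.06 and 7.53 at T0, 5.82 and 5.28 at 30 min and 5.19 and 5.30 at 3 h.

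Against 30 min, 3 probe sets passed at 12 h (0.0189%), all higher: Chac1 (2.93 ± 0.28, adjusted p = 0.00934), Glce (1.74 ± 0.19, adjusted p = 0.0203) and Cars1, the cysteinyl-tRNA synthetase (1.73 ± 0.22, adjusted p = 0.0443). Cars1 had 9.15 and 8.81 at 12 h, against 7.09 and 7.41 at 30 min, and its T0 values were 8.15 and 8.26. Same-numbered arrays of these times deviated together (correlation 0.56), and with the replicate number as a block Cars1 did not pass (limma, adjusted p = 0.0514). None of the 3 passed on the 8 CA3 arrays alone, without either of the 12 h arrays or without 30 min replicate 1. Against 3 h, 0 of 15866 probe sets passed (limma), the smallest adjusted p was 0.221, and 1014 had an unadjusted p under 0.05.

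By list, the mean log2 value of the mitosis genes was 6.93 and 6.72 at T0, 6.40 and 5.71 at 30 min, 5.78 and 5.45 at 3 h and 5.44 and 5.03 at 12 h. Microglia markers had 8.63 and 8.55 at T0, 8.57 and 7.03 at 30 min, 8.42 and 7.09 at 3 h and 7.49 and 6.17 at 12 h. From 30 min on, replicate 2 was lower than replicate 1 by more than the replicates differed at T0. Neuronal growth and vesicle genes had 7.49 and 6.40 at T0, 6.34 and 8.15 at 30 min, 6.69 and 7.90 at 3 h and 8.11 and 8.50 at 12 h. At 30 min and 3 h replicate 2 of this list lay well above replicate 1.

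**Figure D3:**
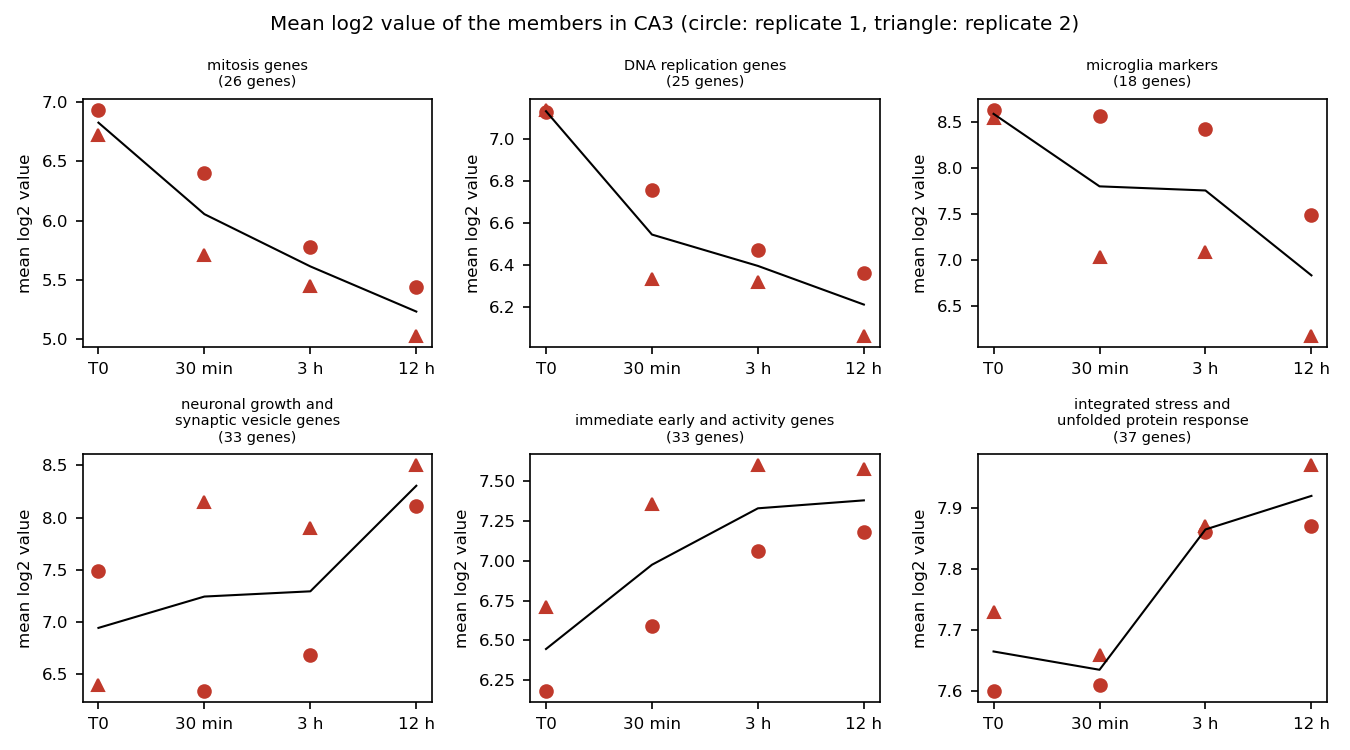
Mean log2 value of the members of 6 gene lists on each CA3 array at T0, 30 min, 3 h and 12 h; circles are replicate 1, triangles replicate 2, the line joins the means of 2 arrays, and each panel has its own vertical axis. Mitosis and DNA replication genes are lower at each later time, and microglia and neuronal lists have replicates far apart at 30 min and 3 h.

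CA1 at 12 h against its own T0 was the comparison most like this one. There 33 of 15866 probe sets passed (0.208%), and 553 genes were separated in the higher (5.31%) and 552 in the lower direction (5.3%). Of the genes separated by 1 or more in the higher direction in CA3, 302 were also separated in CA1, which is 74.9% of the 403 of CA3 and 54.6% of the 553 of CA1. In the lower direction 281 were shared, or 79.6% of the 353 of CA3 and 50.9% of the 552 of CA1. None were separated by 1 or more in opposite directions. Over probe sets the changes in the 2 fields correlated at 0.84, as a description, since arrays of the fields with the same number deviate together (0.57 at 12 h and 0.57 at T0).

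The difference between the changes of the 2 fields was tested itself, and 0 of 15866 probe sets passed (limma, 71 at an unadjusted p under 0.05, with 793 expected by chance). The standard error of this difference had a median of 0.41, so that a difference of 1 could go unseen for many genes. This fit took arrays of the 2 fields as independent, although same-numbered ones deviate together. In a limma fit of same-numbered pairs 0 also passed, with 371 at an unadjusted p under 0.05 and a smallest adjusted p of 0.25. The Chac1 difference was 3.41 in CA3 and 2.89 in CA1, which lie 0.51 apart. Mitosis genes had medians of -1.47 in CA3 and -1.79 in CA1, and microglia markers -1.87 and -1.83. Excitatory neuron markers had 1.24 in CA3 and 2.04 in CA1, and CA1 pyramidal markers 0.32 and 2.12.

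Named by rule, genes with the larger change in CA3 included Wnt4, Fnip2 and Lynx1, and genes with the larger change in CA1 included Dcn, Mylip, Mlip and Pou3f1. None passed the test of the difference. Fnip2 had 9.73 and 9.40 in CA3 at 12 h, against 8.34 and 8.16 in CA3 at T0, and 8.62 and 8.16 in CA1 at 12 h, against 8.26 and 8.41 in CA1 at T0. Of these 8 arrays the CA3 12 h arrays stood apart. Wnt4 had 4.27 and 4.81 in CA1 at 12 h, against 3.91 and 4.06 in CA1 at T0, and Lynx1 had 5.51 and 5.20, against 5.13 and 5.06. The CA3 changes exceeded those of CA1 by 1.25 ± 0.34 for Fnip2, 1.31 ± 0.39 for Wnt4 and 1.16 ± 0.28 for Lynx1. Dcn, the matrix proteoglycan decorin and a CA1 marker, had 4.16 and 5.46 in CA3 at 12 h, against 4.74 and 5.66 in CA3 at T0, and 7.79 and 6.91 in CA1 at 12 h, against 4.47 and 4.31 in CA1 at T0. Pou3f1, a transcription factor of CA1 neurons, differed by 0.11 in CA3 and 2.31 in CA1, so that the CA3 value was -2.21 ± 0.52 relative to that of CA1.

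**Figure D4:**
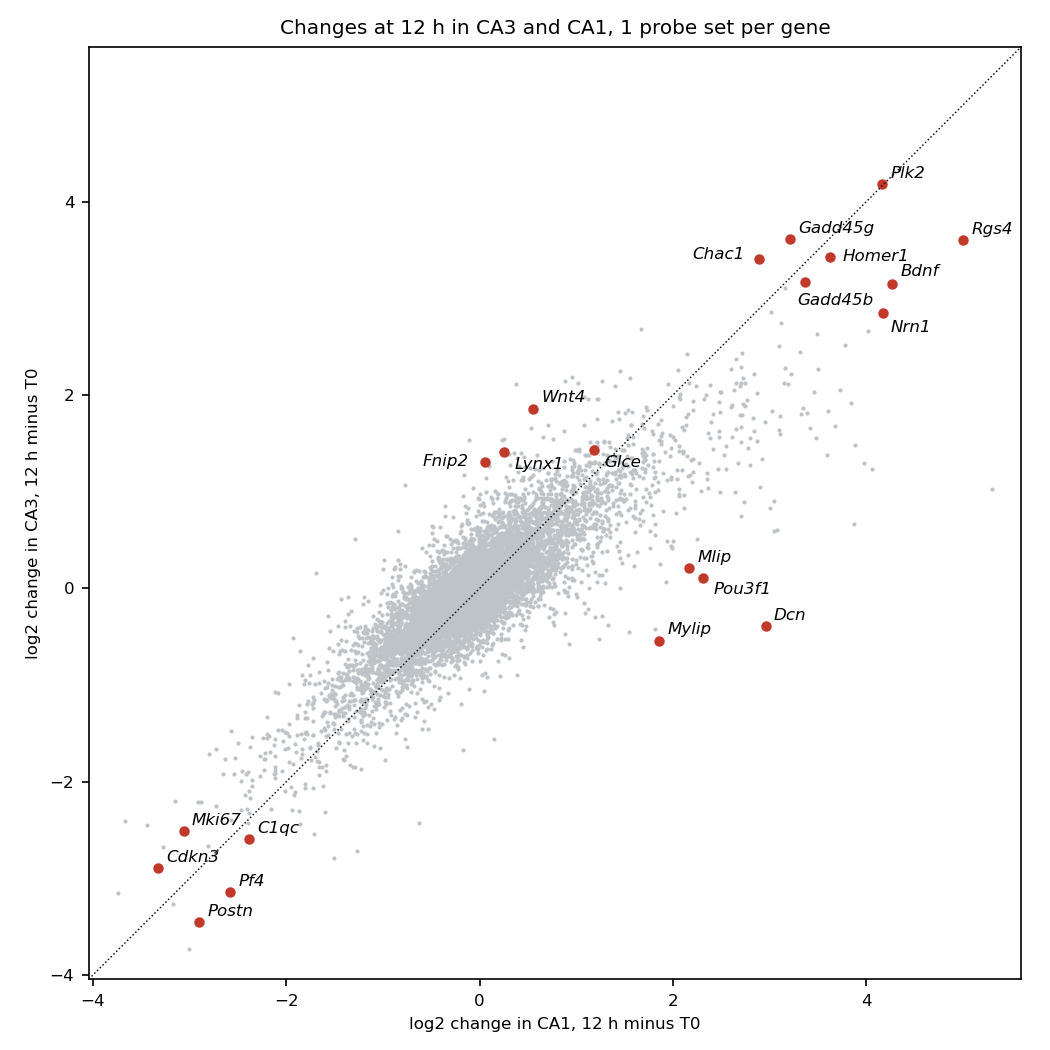
Log2 change of each of 10411 genes at 12 h minus T0, in CA3 on the vertical axis and CA1 on the horizontal axis, with equal changes on the dotted line and named genes in red. Points gather along the line, Wnt4, Fnip2 and Lynx1 lie above it and Dcn, Pou3f1, Mlip and Mylip below it.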

How the data were processed

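Total RNA from 16 slice samples was hybridized to an Affymetrix rat array of 15923 probe sets. The deposited values are log2 expression values. The submitters' processing notes name RMA, with no version, so background, normalization and probe summary were set before deposit.

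The 57 control probe sets were left out. limma 3.58.1 in R 4.3.3 fitted the means of 8 groups to 15866 probe sets (8 residual and 2.55 prior degrees of freedom), with Benjamini-Hochberg adjustment and a threshold of 0.05. All 16 arrays share 1 estimate of the spread. The method was tested on simulated data. Noise in that simulation was independent between arrays, so it does not cover the shared deviations of same-numbered arrays. Array scanner depth is not defined, and 2 arrays a group limit the precision.

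For 12783 probe sets GEO's platform annotation gives 1 gene, for 312 several and for 2771 none; 12748 matched RefSeq. The brightest probe set stood for each of 10411 genes, of which 1868 have several. Named were genes past the threshold, the 12 in each direction with the largest moderated t among separated genes, 4 of each of 47 lists, and 8 in each direction for the difference from CA1. Other members are given to account for a list and were chosen after their values were seen. The members and lists were chosen with earlier results of these data known. Of 996 listed symbols 817 were measured.

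Deviations of same-numbered arrays from their group means correlated at 0.02 between CA3 at 12 h and T0, so these numbers were not taken as pairs. The correlation was 0.56 with CA3 at 30 min and 0.51 with CA3 at 3 h.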

Additional observations from a re-analysis of the deposited data

Results flagged for a closer look

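Mylip, which encodes a ubiquitin ligase that degrades lipoprotein receptors, had all its 12 h arrays below T0 in CA3 and above T0 in CA1, by less than 1 in CA3. It had log2 values of 6.54 and 6.44 in CA3 at 12 h, against 7.46 and 6.60 in CA3 at T0, and 8.55 and 8.40 in CA1 at 12 h, against 6.83 and 6.40 in CA1 at T0. The difference between the changes was -2.40 ± 0.66 and did not pass limma's test over all probe sets. Of 10411 genes, 120 had arrays without overlap, at any distance, in opposite directions in CA3 and CA1, and 2617 in the same direction.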

How the results depend on the processing

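The count of 1 probe set past the threshold in CA3 at 12 h against T0 was 0 on the 4 arrays alone, 2 with means of at least 6, 4 with an intensity trend and robust prior, 2 with the added control transcripts as a covariate, 21 at a threshold of 0.1, and 1 to 10 with 1 array left out. The 10, of which 1 was higher and 9 lower, came without T0 replicate 1, and 2 passed without 12 h replicate 1. With a replicate block the count was 22, 10 higher and 12 lower. Same-numbered arrays of CA3 at 12 h and T0 did not deviate together (correlation 0.02). Those of CA3 at 12 h and 30 min (0.56) and of CA3 and CA1 at 12 h (0.57) did. Alternatives chosen after seeing the data gave 34 (16 higher, 18 lower) with the GAPDH 3' minus 5' difference as a covariate and 8 with the BioB signal; the cause was not tested. The CA3 minus CA1 count of 0 was 0 in the fit of same-numbered pairs (a replicate block) and 0 to 1 with an array left out, with the 1 without CA3 T0 replicate 1. The count of 0 against 3 h was 0 to 1, with the 1 without 3 h replicate 2. The count of 3 against 30 min was 0 on the 8 CA3 arrays, 1 after quantile normalization, 1 with means of at least 6, 0 without the number 2 arrays of 12 h in both fields (chosen after seeing the data), and 0 to 7 with an array left out, with the 7 without 30 min replicate 2. The 1002 separated probe sets were 357 at a distance of 1.5 and 2898 at 0.5.

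Of 2255 values of named genes under other settings 23 turned direction, in 12 of 128 gene values, none of which had passed the test. With 1 array left out, the CA3 difference ran from -0.93 to 0.27 for Cdkn1a, -0.35 to 0.52 for Cx3cr1, -1.36 to 1.81 for Egr1, -0.13 to 1.88 for Fos, -0.36 to 0.53 for Gfap, -0.22 to 0.48 for Hspa5, -0.15 to 0.00 for Itgam, -0.64 to 0.50 for Nqo1, -0.03 to 0.92 for Psat1 and -0.13 to 0.05 for Tnf. With the added control transcripts as a covariate it was -0.61 for Egr1, 0.11 for Il1b, -0.29 for Mpped1 and 0.06 for Tnf. Without the number 2 arrays of 12 h it was -0.29 for Egr1, 0.00 for Itgam and 0.15 for Nqo1. Tnf was 0.02 after quantile normalization and 0.02 after cyclic loess.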
